A study of Mus musculus with 19 samples.

Results

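Fc gamma receptors are the cell surface proteins through which microglia and other myeloid cells bind the constant part of immunoglobulin G. The 5 genes described here are the activating receptors *Fcgr1*, *Fcgr3* and *Fcgr4*, the inhibitory receptor *Fcgr2b*, and *Fcer1g*, which encodes the common gamma chain. They were taken by symbol from GENCODE M39 and looked up by Ensembl identifier among the 56980 genes of the count table. All 5 were present, and all 5 were among the 18739 genes whose counts were high enough to be tested. The rule names the genes and uses no measured value, although earlier results of these data were known when it was set.

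The receptors differ in what they do with a bound antibody. *Fcgr1* encodes the high-affinity receptor CD64, *Fcgr3* the low-affinity receptor CD16, and *Fcgr4* the receptor CD16-2, which prefers the IgG2 subclasses. These activating receptors signal through the gamma chain, a small adaptor whose cytoplasmic tail holds an immunoreceptor tyrosine-based activation motif (ITAM). SRC family kinases phosphorylate the ITAM tyrosines and SYK docks there, which leads to phagocytosis and cytokine release. *Fcgr2b* encodes CD32B, which has no gamma chain but an inhibitory motif (ITIM) in its own tail that recruits the lipid phosphatase SHIP1 and so restrains the activating receptors.

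The RNA came from CD11b+ cells that were isolated from the brain with magnetic beads (MACS), without culture, from 19 male mice of 3 to 4 months, with 1 mouse per library. The *PARK7*/DJ-1 KO line carries a gene trap in *Park7* and had been backcrossed to C57BL/6NCrl, and the wildtype mice were littermates from heterozygous breeding pairs. Each mouse had received an intraperitoneal injection of LPS (4 µg/g body weight), a bacterial endotoxin, or of PBS as the vehicle and baseline control, 6 h before the cells were taken. The groups were 5 LPS-treated and 4 PBS-treated wildtype mice and 5 LPS-treated and 5 PBS-treated KO mice. The gene trap is present in every cell of the mouse, and the olfactory bulb and cerebellum were not part of the tissue.

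The libraries held 11936364 to 22788884 counts each (median 17211939). Levels of a gene are given as CPM, its counts scaled by the total of the library after TMM normalization, and 3 counts corresponded to 0.139 to 0.256 CPM, a limit that covers counting error only. *Park7* itself was measured at 20.6 to 32.1 CPM in the wildtype libraries and at 0.46 to 5.38 CPM in the KO libraries, with no overlap. Defining genes of microglia were high in every library (the summed level of 8 markers was 10289 to 39222 CPM). Markers of oligodendrocytes varied most between libraries of a group, at a summed 477 to 11132 CPM. Libraries 1 and 5 of the LPS-treated KO mice stood at opposite ends of the second principal component. None of the calls on the 5 genes reported below changed when those 2 libraries, or the library with the highest oligodendrocyte markers of each group, were left out.

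*Fcgr2b*, *Fcgr4* and *Fcgr3* lie next to each other on chromosome 1 and *Fcer1g* is close by. On GRCm39, *Fcgr2b* (ENSMUSG00000026656) spans chr1:170786186-170804177 on the minus strand, *Fcgr4* (ENSMUSG00000059089) chr1:170846466-170857330 on the plus strand, *Fcgr3* (ENSMUSG00000059498) chr1:170878738-170893549 on the minus strand and *Fcer1g* (ENSMUSG00000058715) chr1:171057141-171062219 on the minus strand. *Fcgr1* (ENSMUSG00000015947) is on another chromosome, at chr3:96190225-96201338 on the minus strand. The canonical transcripts encode proteins of 404 (*Fcgr1*), 267 (*Fcgr3*), 249 (*Fcgr4*), 293 (*Fcgr2b*) and 86 residues (*Fcer1g*). The coding stretches of the activation and the inhibition motif are shown because they set the gamma chain and *Fcgr2b* apart. Both are read 5′ to 3′ on the coding strand, with the codons of the signalling tyrosines in capitals. The ITAM covers residues 65 to 79 of the gamma chain and its codons lie within chr1:171057458-171057641, split by an intron. The ITIM covers residues 270 to 275 of CD32B at chr1:170788640-170788657.
Fcer1g ITAM: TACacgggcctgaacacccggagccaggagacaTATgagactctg
Fcgr2b ITIM: atcaccTACtcacttctc

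The stretch around the annotated start is shown for *Fcgr4*, the gene with the largest change below, and for *Fcgr1*. The windows held the 250 bases before the RefSeq start, and both were taken from RefSeq (build GRCm38.p6), matched exactly and once to GRCm39, and are read 5′ to 3′ on the strand of the gene. The stretch of *Fcgr4* is chr1:170846245-170846494 on the plus strand, and that of *Fcgr1* is chr3:96201309-96201535 on the minus strand, shown for 227 of the 250 bases. The last 29 bases shown for *Fcgr4* and the last 30 for *Fcgr1* lay in the first exon of the gene as GENCODE M39 draws it. Capitals mark matches to a PU.1 core (GAGGAAG, here on the other strand as CTTCCTC), to a gamma-activated site (GAS, TTCNNNGAA) or to an interferon-stimulated response element core (ISRE, GAAA, any 2 bases and GAAA).
Fcgr4 promoter: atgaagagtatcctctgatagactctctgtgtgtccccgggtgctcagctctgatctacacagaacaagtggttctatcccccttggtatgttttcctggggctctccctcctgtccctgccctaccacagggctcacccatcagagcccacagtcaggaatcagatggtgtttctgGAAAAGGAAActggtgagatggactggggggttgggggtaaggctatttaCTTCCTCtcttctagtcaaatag
Fcgr1 promoter: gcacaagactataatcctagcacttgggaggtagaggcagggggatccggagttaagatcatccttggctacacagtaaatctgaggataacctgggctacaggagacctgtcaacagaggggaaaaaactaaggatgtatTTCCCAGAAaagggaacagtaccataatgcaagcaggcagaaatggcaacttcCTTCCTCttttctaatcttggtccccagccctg

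Counted from the RefSeq start, *Fcgr4* held the ISRE core at -73 and the PU.1 core at -23, and *Fcgr1* held the GAS at -109 and the PU.1 core at -56. By the GENCODE M39 annotation, the ISRE core and the GAS lay before the start, whereas all 7 bases of the PU.1 core of *Fcgr4* and 4 of those of *Fcgr1* lay in the first exon. The 250 bases before the RefSeq start of *Fcgr3* also held a PU.1 core, at -7, and those of *Fcgr3* and *Fcgr4* each held a match to the NF-kappaB consensus at -152. For *Fcgr3* these positions belong to the window chr1:170886973-170887222. Another RefSeq entry of *Fcgr3* has the window chr1:170886964-170887213, from which the positions would be counted differently. On either strand, the PU.1 core occurred in 10.4%, the GAS in 7.18%, the ISRE core in 3.04% and the NF-kappaB consensus in 3.75% of 27025 mouse promoter windows of the same length. The windows of *Fcgr2b* and *Fcer1g* held none of these motifs. For *Fcgr3*, *Fcgr2b* and *Fcer1g*, 219, 187 and all 250 bases of the window lay inside exons of the gene, against 29 for *Fcgr4* and 53 for *Fcgr1*, so that the former windows are mostly not the sequence before the first annotated start. The motifs were chosen after the sequences had been seen, and a match is a description of the letters in the window.

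At baseline the order of the levels was the same in both genotypes. Levels of different genes are compared as TPM, in which the counts are divided by the exonic length of the gene before they are scaled by the library. In the PBS-treated wildtype mice *Fcgr3* was highest with a mean of 1333 TPM (1098 to 1508 over 4 mice), followed by *Fcer1g* with 836 TPM (702 to 967), *Fcgr1* with 333 TPM (255 to 409), *Fcgr2b* with 222 TPM (179 to 257) and *Fcgr4* with 37.8 TPM (29.2 to 47.4). In PBS-treated KO mice the means were 1306, 847, 311, 214 and 42.2 TPM in the same order. In the wildtype mice the ranges of *Fcgr1* and *Fcgr2b* touched at 255 and 257 TPM, and those of the other neighbours in this order did not overlap. Among 21631 protein-coding genes, *Fcgr3* ranked 54th and *Fcer1g* 95th by mean TPM in the wildtype mice, while *Fcgr4* ranked 4534th.

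After LPS *Fcgr3* and *Fcer1g* remained the highest, and the order below them was different. In the LPS-treated wildtype mice the means were 2322 TPM for *Fcgr3* (1928 to 2453 over 5 mice), 1427 TPM for *Fcer1g* (1217 to 1673), 628 TPM for *Fcgr2b* (584 to 670), 603 TPM for *Fcgr4* (512 to 812) and 577 TPM for *Fcgr1* (472 to 681). The ranges of *Fcgr2b*, *Fcgr4* and *Fcgr1* overlapped, so that their order was not resolved. In the LPS-treated KO mice the means were 2801, 1336, 684, 486 and 570.4 TPM, and *Fcgr3* reached from 1998 to 3774 TPM. *Fcgr4* ranked 181st among protein-coding genes in LPS-treated wildtype and 249th in LPS-treated KO mice, and *Fcgr3* ranked 26th and 18th. The order of the genes depends on the length used for each gene, which is taken up with the ratios further on, whereas a change of one gene between groups does not.

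The largest response to LPS was that of *Fcgr4*. In the 4 PBS-treated wildtype mice it stood at 9.28, 6.55, 10.9 and 7.76 CPM, and in the 5 LPS-treated wildtype mice at 163, 121, 137, 210.3 and 130.3 CPM. In KO mice it stood at 10.1, 15.8, 9.14, 6.97 and 7.24 CPM after PBS and at 98.5, 149, 124, 124 and 139 CPM after LPS. Every LPS-treated mouse was far above every PBS-treated mouse, and the lowest LPS library was a KO library. The log2 fold change (log2FC) was 4.14 ± 0.257 (SE) in wildtype mice, a 17.7-fold rise (adjusted p = 1.2e-09), and 3.68 ± 0.228 in KO mice, a 12.8-fold rise (adjusted p = 6.1e-10). Both values came from the quasi-likelihood test of edgeR, adjusted by Benjamini and Hochberg's method over all genes tested. Only 0.945% of the tested genes had a higher log2FC in wildtype and 1.25% in KO mice. No PBS library held more than 342 counts of this gene, and the LPS libraries held 1528 to 3234.

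**Figure D1:**
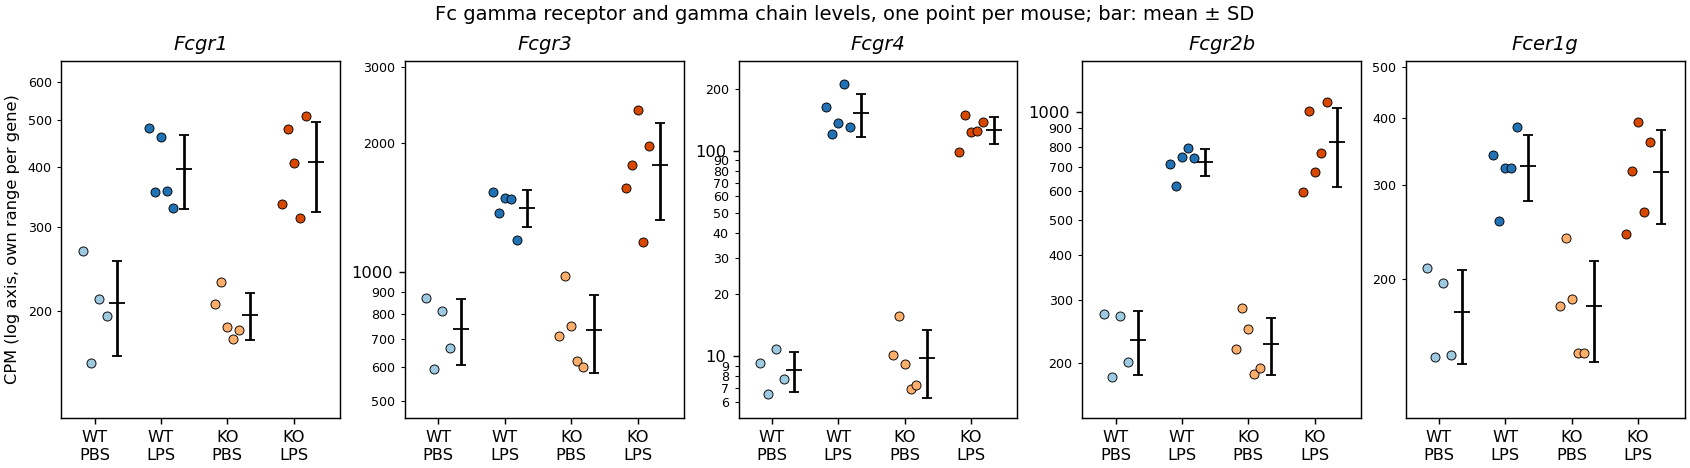
Level of each gene in every library in CPM, on a log axis with its own range per gene, with 1 point per mouse and a bar for the mean ± SD of each group. The LPS-treated mice lie above the PBS-treated mice of their genotype for all 5 genes, and the gap is widest for *Fcgr4*, from at most 15.8 to at least 98.5 CPM.

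*Fcgr2b*, the inhibitory receptor, had the next largest rise. It was measured at 273, 183, 270.3 and 201 CPM in PBS-treated and at 714, 623, 747, 794 and 742 CPM in LPS-treated wildtype mice. The KO mice had 218, 284, 249, 186 and 194 CPM after PBS and 596, 1005, 678, 769.8 and 1064 CPM after LPS. Every LPS library was above every PBS library, and the LPS-treated KO mice spread more widely than the LPS-treated wildtype mice. The log2FC was 1.64 ± 0.185 in wildtype (3.12-fold, adjusted p = 9.2e-07 by edgeR) and 1.86 ± 0.172 in KO mice (3.63-fold, adjusted p = 6.1e-08).

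*Fcgr3*, the most abundant of the receptors, rose less. Wildtype mice had 872, 596, 810.5 and 664 CPM after PBS and 1539, 1375, 1484, 1476 and 1186 CPM after LPS. KO mice had 711, 978, 747, 621 and 602 CPM after PBS and 1569.9, 1774, 2385, 1176 and 1964 CPM after LPS. Libraries of LPS-treated KO mice included both the lowest and the highest LPS value, and none reached down to a PBS library. The log2FC was 0.94 ± 0.19 in wildtype (1.92-fold, adjusted p = 5.1e-04 by edgeR) and 1.28 ± 0.179 in KO mice (2.42-fold, adjusted p = 8.9e-06).

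*Fcgr1* rose to a similar extent. It was at 267, 156, 212 and 196 CPM in PBS-treated and at 483, 354, 462, 356 and 328 CPM in LPS-treated wildtype mice. The KO mice had 207, 229, 185, 175 and 183 CPM after PBS and 334, 479, 407, 314 and 511 CPM after LPS. The groups did not overlap in either genotype, and PBS-treated wildtype mouse 1, at 267 CPM, was the PBS library nearest to the LPS libraries. The log2FC was 0.93 ± 0.175 in wildtype (1.91-fold, adjusted p = 2.4e-04 by edgeR) and 1.06 ± 0.163 in KO mice (2.09-fold, adjusted p = 2.6e-05).

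*Fcer1g*, the adaptor of the activating receptors, had the smallest rise in KO mice. Its levels were 209.6, 143, 196 and 144 CPM in PBS-treated and 342, 257, 324, 322 and 386 CPM in LPS-treated wildtype mice. In KO mice they were 178, 239, 183, 145 and 145 CPM after PBS and 243, 319, 394, 267 and 362 CPM after LPS. The lowest LPS library of the KO mice, at 243 CPM, lay just above their highest PBS library at 239 CPM. The log2FC was 0.91 ± 0.18 in wildtype (1.88-fold, adjusted p = 4.0e-04 by edgeR) and 0.83 ± 0.167 in KO mice (1.78-fold, adjusted p = 4.1e-04).

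All 5 genes were thus called higher after LPS in wildtype and in KO mice, where a call needed an adjusted p under 0.05 and a log2FC of at least 0.5 in size. Such calls were common: 18.4% of all tested genes were called higher and 17.4% lower in wildtype mice, and 20.1% higher and 19% lower in KO mice. Groups that did not overlap and were higher after LPS were found for 20.8% of all tested genes in wildtype and 16.2% in KO mice, and for all 5 genes here in both. The median log2FC of the 5 genes was 0.94 in wildtype and 1.28 in KO mice, against -0.06 and -0.01 over all tested genes. In bulk RNA, more or fewer cells of a type and more or less of a transcript per cell cannot be told apart, and this holds for every change given here.

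Markers of the cells in the sort also moved with LPS. All 8 microglia markers were called lower in both genotypes, and their summed level went from 24509 to 38448 CPM in PBS-treated to 10289 to 16651 CPM in LPS-treated wildtype mice, and from 25845 to 39222 to 10676 to 16571 CPM in KO mice. *P2ry12*, the purinergic receptor of resting microglia, had a mean of 2289 CPM after PBS and 181 CPM after LPS in wildtype mice. The Fc gamma receptors therefore rose while markers of microglia fell in the same libraries. Of 6 monocyte markers 5 were called higher in each genotype, none was at 0 in every library, and their summed level was 84.9 to 278 CPM after PBS and 267 to 539 CPM after LPS in wildtype mice and 114 to 406 and 139 to 541 CPM in KO mice. The monocyte genes *Ly6c2* and *Plac8* rose from means of 1.31 and 0.97 CPM to 50.8 and 80.6 CPM in wildtype mice. Of 8 neutrophil markers 3 were called higher and 1 lower in wildtype and 4 higher and 1 lower in KO mice, with a summed 420 to 622 CPM after PBS and 409 to 635 CPM after LPS in wildtype mice, and 404 to 624 and 269 to 656 CPM in KO mice, while most of this sum was *Csf3r*, which went from a mean of 466 to 300 CPM in wildtype mice. *S100a8* went from 20.2 to 93.2, *S100a9* from 9.80 to 42.7 and *Mmp8* from 6.19 to 41.4 CPM in the same mice, and the defining neutrophil gene *Ly6g* had a mean under 1 CPM in each group. Of 6 markers of border-associated macrophages 3 were called lower in each genotype, with a summed 511 to 621 CPM after PBS and 299 to 508 CPM after LPS in wildtype and 469 to 625 and 264 to 480 CPM in KO mice. The part of these cells in the rise of the receptors was not tested.

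Within the groups the 5 genes varied together. Over the 19 libraries, the deviations of log2 CPM from the group means correlated between any 2 of the genes with Pearson's r from 0.50 (*Fcgr3* and *Fcgr2b*) to 0.79 (*Fcgr4* and *Fcgr2b*). The same deviations correlated with those of the summed microglia markers with r = 0.91 for *Fcgr1*, 0.77 for *Fcgr3*, 0.59 for *Fcer1g*, 0.58 for *Fcgr2b* and 0.50 for *Fcgr4*. With the summed monocyte markers r was between -0.79 (*Fcgr1*) and -0.59 (*Fcgr4*), and most of this sum was *Ace* in PBS-treated mice (a mean of 151 CPM in wildtype and 210 CPM in KO mice). After LPS *Ace* still had the highest mean and the widest spread of the 6 markers, at 166 ± 78.6 CPM (SD) in wildtype and 150 ± 114 CPM (SD) in KO mice. *Chil3* had the next widest spread, with an SD of 25.2 CPM in wildtype and 20.4 CPM in KO mice. The correlation with the monocyte markers other than *Ace* was not examined. With the markers of border-associated macrophages r was between 0.18 (*Fcgr1*) and 0.58 (*Fcgr4*, above its value for microglia), with those of neutrophils between 0.22 and 0.44, and with those of oligodendrocytes between -0.38 and 0.02. These values describe 19 libraries that share their scaling and differ in depth and in the level of markers of other cells.

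Between the genotypes none of the 5 genes met the threshold of the comparison, an unadjusted p under 0.05 with a log2FC of at least 0.5 in size. After LPS, the log2FC of KO against wildtype was 0.33 for *Fcgr3* (95% interval -0.04 to 0.70), with mean levels of 1774 ± 449 CPM (SD, n = 5) and 1412 ± 139 CPM (SD, n = 5), and its unadjusted p in edgeR was 0.0774. Among 22 alternatives for this log2FC of *Fcgr3*, leaving out LPS-treated KO mouse 4 gave the highest, 0.45. That fit also had the smallest unadjusted p, 0.0148 in edgeR, and its log2FC was still under the limit of 0.5. The lowest log2FC of the 22 was 0.20. With all mice, the log2FC of *Fcgr4* was -0.26 (-0.69 to 0.16), with 127 ± 19 and 152 ± 36.0 CPM. For *Fcgr2b* it was 0.18 (-0.17 to 0.53), with 823 ± 204 and 724 ± 63.2 CPM. *Fcgr1* and *Fcer1g* were closer to 0, at 0.04 (-0.29 to 0.38) and -0.04 (-0.39 to 0.31). The adjusted p-values of all 5 rounded to 1.00. Over all tested genes, 1.31% met the threshold and 0.0107% had an adjusted p under 0.05.

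At baseline the genotypes were closer still for *Fcgr3*, with a log2FC of -0.01 (-0.40 to 0.38), *Fcgr2b* with -0.04 (-0.41 to 0.34) and *Fcer1g* with 0.04 (-0.33 to 0.41). *Fcgr1* was at -0.08 (-0.44 to 0.27), and *Fcgr4* at 0.19 (-0.28 to 0.67), with means of 9.85 ± 3.57 CPM in KO (SD, n = 5) and 8.62 ± 1.89 CPM in wildtype mice (SD, n = 4). KO mouse 2, at 15.8 CPM, was the only PBS library above the highest wildtype library for this gene. None of the 5 met the threshold, which 0.8% of all tested genes did, while 0.00534% had an adjusted p under 0.05. Groups without overlap were found for 0.971% of all tested genes at baseline and 0.219% after LPS, and for none of the 5 genes. The intervals leave room for a difference between the genotypes of up to 0.70 on the log2 scale after LPS and up to 0.67 at baseline.

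The difference between the LPS responses of the 2 genotypes was tested directly as an interaction. It was -0.46 on the log2 scale for *Fcgr4* (95% interval -1.10 to 0.18), 0.34 for *Fcgr3* (-0.20 to 0.87), 0.22 for *Fcgr2b* (-0.29 to 0.73), 0.13 for *Fcgr1* (-0.36 to 0.62) and -0.08 for *Fcer1g* (-0.59 to 0.43). A negative value means a smaller rise in KO mice. None had an adjusted p under 0.05 in edgeR, as was the case for 0% of all tested genes, and none had an unadjusted p under 0.05, as 0.961% of all tested genes had. The smallest unadjusted p of the 5 genes was 0.149, for *Fcgr4*.

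**Figure D2:**
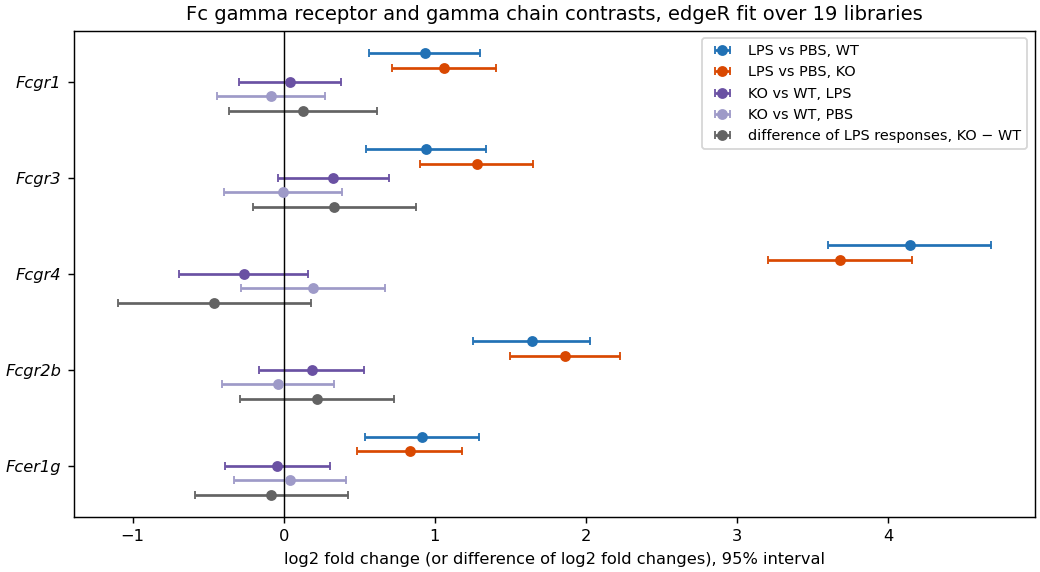
Log2 fold change of each gene with its 95% interval for the LPS effect in each genotype, the genotype effect with LPS or PBS, and the interaction. The LPS effects lie to the right of 0, from 0.83 to 4.14, and all intervals of the genotype and interaction terms include 0.

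The receptors made up a different mixture after LPS. The summed level of the 4 receptors was 1925 ± 288 TPM (SD, n = 4) in PBS-treated and 4130 ± 341 TPM (SD, n = 5) in LPS-treated wildtype mice, and 1873 ± 242 and 4541 ± 664 TPM in KO mice. *Fcgr4* supplied 1.76% to 2.26% of this sum in PBS-treated and 12.6% to 18.7% in LPS-treated wildtype mice. In KO mice it supplied 1.89% to 2.79% after PBS and 8.80% to 13.9% after LPS. The mean share of *Fcgr3* was 69.3% after PBS and 56.2% after LPS in wildtype mice without overlap, and 69.6% and 61.2% in KO mice, where LPS-treated mouse 3 with 70.1% was within the range of the PBS group. *Fcgr1* went from 17.2% to 13.9% in wildtype and from 16.7% to 12.6% in KO mice, and *Fcgr2b* from 11.5% to 15.3% and from 11.4% to 15.3%, where LPS-treated KO mouse 3 with 10.5% was below every PBS-treated KO mouse. The shares of KO and wildtype mice overlapped for each receptor after LPS. The shares depend on the gene lengths: with the length of the canonical transcript, the mean share of *Fcgr4* was 1.07% after PBS and 8.49% after LPS in wildtype and 1.21% and 6.18% in KO mice.

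**Figure D3:**
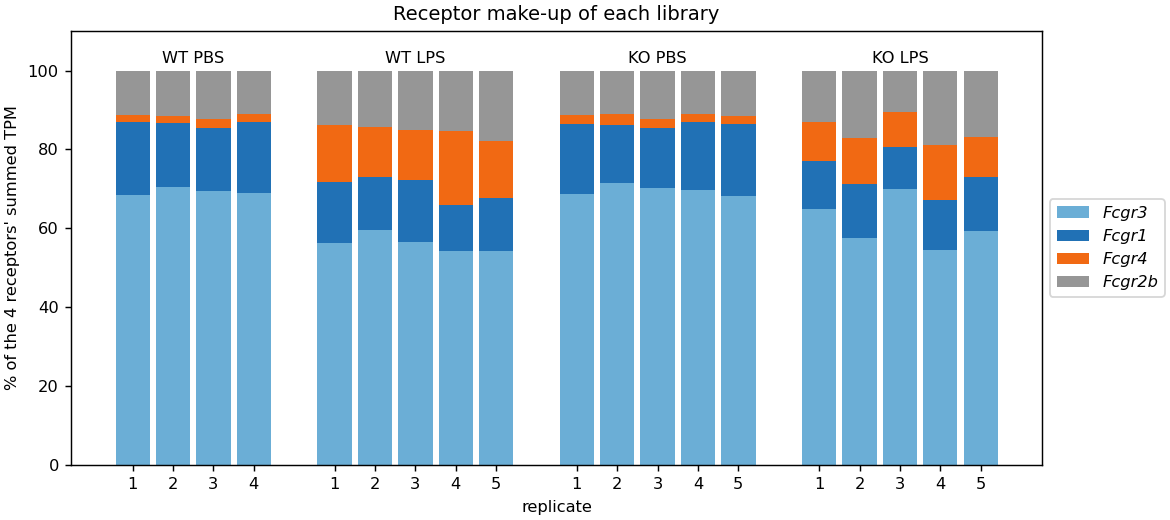
Share of each receptor in the summed TPM of the 4 receptors, with 1 bar per library and libraries ordered by group and replicate number. *Fcgr4* makes up at most 2.79% of the bar in PBS-treated mice and at least 8.80% in LPS-treated mice.

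Set against the inhibitory receptor in the same library, the activating receptors moved in different directions. The mean log2 TPM ratio of *Fcgr1* to *Fcgr2b* was 0.58 after PBS and -0.14 after LPS in wildtype mice and 0.55 and -0.25 in KO mice, without overlap in either genotype. That of *Fcgr3* to *Fcgr2b* was 2.59 and 1.88 in wildtype mice without overlap, and 2.61 and 2.03 in KO mice, where LPS-treated mouse 3 had 2.74. That of *Fcgr4* to *Fcgr2b* went the other way, from -2.56 to -0.08 in wildtype and from -2.38 to -0.48 in KO mice. After LPS it was 0.0648, -0.17, -0.25, 0.28 and -0.32 in the 5 wildtype mice and -0.40, -0.56, -0.26, -0.44 and -0.74 in the 5 KO mice. The 4 highest values were those of wildtype libraries, and the other wildtype library lay among the KO libraries. These differences were not tested beyond the fit of each gene.

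The sum of the 3 activating receptors was 7.71 times *Fcgr2b* in TPM after PBS and 5.60 times after LPS in wildtype mice, without overlap. In KO mice the means were 7.78 and 5.84, with overlap. The gamma chain stood at 0.491 of the summed activating receptors after PBS and 0.414 after LPS in wildtype mice, where library 5 of the LPS group had 0.574 and the groups overlapped, and at 0.509 and 0.349 in KO mice without overlap. The levels of such ratios depend on the transcript length that is assumed. With the length of the canonical transcript in place of all exons, the log2 ratio of *Fcgr4* to *Fcgr2b* after LPS was -0.86 in wildtype and -1.26 in KO mice, and that of *Fcgr1* to *Fcgr2b* -0.52 and -0.63, while the changes with LPS of these ratios between 2 genes were the same by construction. A fixed length does not cancel in the sums: with canonical lengths the activating sum was 8.27 times *Fcgr2b* after PBS and 5.59 times after LPS in wildtype and 8.35 and 6.04 times in KO mice, and the gamma chain stood at 0.321 and 0.291 of the activating sum in wildtype and at 0.333 and 0.238 in KO mice.

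**Figure D4:**
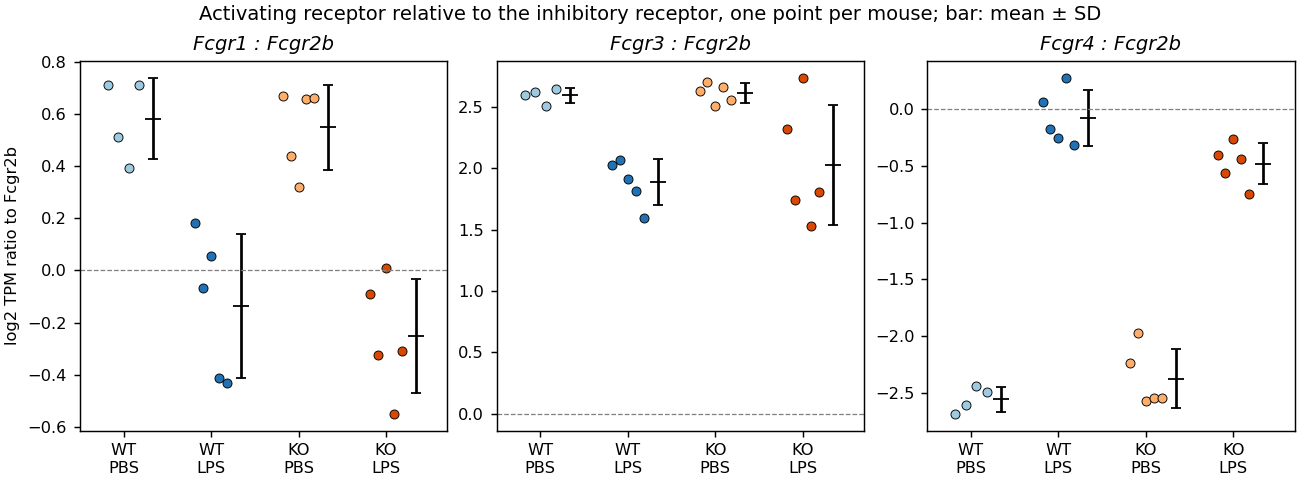
Log2 ratio of the TPM of each activating receptor to that of *Fcgr2b*, with 1 point per mouse, a bar for the mean ± SD of each group and a dashed line at equal TPM. LPS-treated mice lie below PBS-treated mice for *Fcgr1* (means -0.14 and 0.58 in wildtype) and above them for *Fcgr4* (means -0.08 and -2.56).

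The related receptors share some stretches in which the gene of a read cannot be told from its sequence alone. Of the 1471 windows of 75 bases, the read length, in the canonical transcript of *Fcgr3*, 94 (6.39%) also occurred in *Fcgr2b*, which is 2.82% of the windows of *Fcgr2b*. In all, 449 of the 3329 windows of *Fcgr2b* (13.5%) also occurred in transcripts of other genes. No window of *Fcgr1*, *Fcgr4* or *Fcer1g* occurred in a transcript of another gene. The antisense lncRNA *Gm38204* overlapped 355 exonic bases of *Fcgr2b* and had 0 to 8 counts in any library.

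Among the genes next to the chromosome 1 receptors, calls were about as frequent as over all genes. Within 200 kb on either side of the interval from *Fcgr2b* to *Fcer1g*, 25 other genes were tested, and LPS treatment left 5 of them called higher and 5 lower in wildtype and 5 higher and 6 lower in KO mice. Over all tested genes the shares were those given above, 18.4% and 17.4% in wildtype and 20.1% and 19% in KO mice. The highest log2FC among them was that of *Fcrlb*, an Fc receptor-like gene that is named here after its value was seen, with 3.09 in wildtype (adjusted p = 4.0e-06 by edgeR) and 3.37 in KO mice (adjusted p = 4.4e-07).

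The ligand list held 8 genes, of which 2 were tested, with 1 called higher in wildtype and 1 higher and 1 lower in KO mice. Over all tested genes 18.4% were called higher and 17.4% lower in wildtype, and 20.1% higher and 19% lower in KO mice. With 2 genes tested, both at few counts in some groups, the calls describe these 2 genes and not the ligands as a set. Transcripts of the immunoglobulin G heavy chains *Ighg1*, *Ighg2b*, *Ighg2c* and *Ighg3* had 0 to 5 counts per library and were not tested, like those of the pentraxins *Apcs* and *Crp* with 0 to 7 counts. The light chain *Igkc* had 2 to 27 counts in PBS-treated and 4 to 22 in LPS-treated wildtype libraries, and 8 to 25 and 0 to 8 in KO libraries. It was called lower after LPS in KO mice (log2FC -2.38 ± 0.742, adjusted p = 0.0129 by edgeR), and the comparison of LPS-treated KO with LPS-treated wildtype mice gave a log2FC of -2.19 with an unadjusted p of 0.0091 and an adjusted p of 1.00. The summed level of 5 B and plasma cell markers was 7.33 to 12.2 CPM in PBS-treated and 1.56 to 5.01 CPM in LPS-treated wildtype mice and 9.04 to 11.5 and 1.12 to 2.63 CPM in KO mice. Within it *Cd79b* had means of 9.27 CPM after PBS and 2.03 CPM after LPS in wildtype and 9.59 and 1.51 CPM in KO mice, and *Cd79a* had 0.031 and 0.410 CPM in wildtype and 0.117 and 0.305 CPM in KO mice. The call in KO mice was lost when the fit held only the libraries of those 2 groups. The pentraxin *Ptx3*, a soluble protein that can bind Fc gamma receptors, had 0 to 2 counts in PBS-treated and 26 to 214 in LPS-treated wildtype libraries, with 0 counts in PBS-treated and 21 to 167 in LPS-treated KO libraries, and was called higher in both genotypes.

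Among 13 genes of other Fc receptors and their partners 5 were tested. *Fcgrt*, the neonatal Fc receptor that recycles immunoglobulin G, was lower after LPS by a log2FC of -1.33 in wildtype and -1.20 in KO mice, and the Fc receptor-like gene *Fcrl1* by -2.40 and -2.24. *Trim21*, a cytosolic antibody receptor, was higher by 0.99 and 0.97. Where 18.4% and 17.4% of all tested genes were called in wildtype and 20.1% and 19% in KO mice, 2 of the 5 were called higher and 2 lower in wildtype, and 1 higher and 2 lower in KO mice, where leaving out LPS-treated mouse 1 or 4 or PBS-treated mouse 2 gave 2 higher.

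Other receptors that pair with the gamma chain, and other ITAM adaptors, made a list of 11 genes with 8 tested. *Clec4e*, the C-type lectin Mincle, had a mean of 3.05 CPM in PBS-treated and 86.9 CPM in LPS-treated wildtype mice, with a log2FC of 4.83 in wildtype and 4.14 in KO mice. Its neighbour *Clec4d* rose by 4.21 and 3.95 and the receptor *Tarm1* by 5.67 and 6.11, the last from 0 to 8 counts per PBS library. *Lilra5* was lower, by -1.88 and -1.53. Of the 8, 3 were called higher and 1 lower in wildtype (18.4% and 17.4% of all tested genes) and 4 higher and 1 lower in KO mice (20.1% and 19%). *Tyrobp*, the ITAM adaptor DAP12 that serves receptors other than the Fc gamma receptors, is named after its value was seen. It had a log2FC of -0.45 (adjusted p = 0.0875) in wildtype and -0.36 (adjusted p = 0.137) in KO mice in edgeR, where *Fcer1g* rose.

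All 30 genes of the activating signalling list were tested, with 11 called higher and 5 lower in wildtype (18.4% and 17.4% over all tested genes) and 11 higher and 6 lower in KO mice (20.1% and 19%), and a median log2FC of 0.27 and 0.10. *Fgr*, a SRC family kinase, went from a mean of 7.25 to 242 CPM in wildtype mice with a log2FC of 5.06 ± 0.303, and by 4.90 in KO mice. *Lcp2*, the adaptor SLP-76, rose by 1.11 and 1.36 and *Arf6*, a small GTPase of phagocytosis, by 0.92 and 0.95. *Syk*, named after its value was seen, was at 0.53 in wildtype (adjusted p = 0.0372) and at 0.47 in KO mice (adjusted p = 0.0455), which put it on either side of the limit of 0.5 on the log2FC.

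Of the 11 genes of the inhibitory signalling list 3 were called higher and 3 lower in wildtype and 2 higher and 3 lower in KO mice, beside 18.4% and 17.4% of all tested genes in wildtype and 20.1% and 19% in KO mice. Without PBS-treated wildtype mouse 2, 5 were called lower in wildtype mice, and without LPS-treated KO mouse 1 or PBS-treated KO mouse 4, 1 was called higher in KO mice. *Dok2*, an adaptor that restrains kinase signalling, rose by 2.17 in both genotypes. The lipid phosphatases *Inppl1* (SHIP2) and *Inpp5d* (SHIP1), the latter the enzyme recruited by the ITIM of *Fcgr2b*, were lower by log2FC values of -0.98 and -0.63 in wildtype and -0.98 and -0.69 in KO mice. The inhibitory kinase *Csk* was at -0.63 and -0.67. *Inpp5d* was thus called lower in the libraries in which *Fcgr2b* was called higher.

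Of 11 regulators of interferon signalling and of myeloid cells 10 were tested, and 6 were called higher and 1 lower in each genotype (2 lower in KO mice without LPS-treated mouse 2), against 18.4% and 17.4% of all tested genes in wildtype and 20.1% and 19% in KO mice. *Cebpb* rose by 3.14 in wildtype and 2.59 in KO mice, *Irf1* by 1.81 and 1.45 and *Jak1* by 0.97 and 1.26, while the 1 gene called lower, *Cebpa*, had a log2FC of -1.28 and -1.34. *Spi1*, which encodes PU.1, rose by 1.03 and 0.97, and both are named after their values were seen. *Ifng* itself was not tested, with 1 to 25 counts in LPS-treated wildtype and 0 to 5 in LPS-treated KO libraries. Between the genotypes, *Igkc* and the activating receptor *Ncr1* were the only genes of these lists that met the unadjusted threshold after LPS, and none met it at baseline. The lists held 2, 5, 8, 30, 11 and 10 tested genes, and over all tested genes 1.31% met the threshold after LPS and 0.8% at baseline. *Ncr1* had 4 to 19 counts in LPS-treated wildtype and 0 to 11 in LPS-treated KO libraries (log2FC -1.63, unadjusted p = 0.0277 and adjusted p = 1.00 in edgeR). *Ncr1* is also among the 6 markers of T and NK cells and is part of their sum. After LPS that sum was 2.04 to 8.97 CPM in wildtype and 0.619 to 4.25 CPM in KO mice. Of the 3 markers tested, 1 was called between the genotypes after LPS, which was *Ncr1*. *Gzma* had means of 3.05 CPM in wildtype and 1.31 CPM in KO mice, and *Nkg7* had 0.659 and 0.263 CPM. *Klrb1c* was closer, at 0.340 and 0.278 CPM, and *Cd3g* was at 0.039 and 0 CPM. *Cd3e* went the other way, at 0.024 and 0.034 CPM. The part of these cells in the difference of *Ncr1* was not tested. No gene of these lists had an adjusted p under 0.05 between the genotypes or for the interaction.

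**Figure D5:**
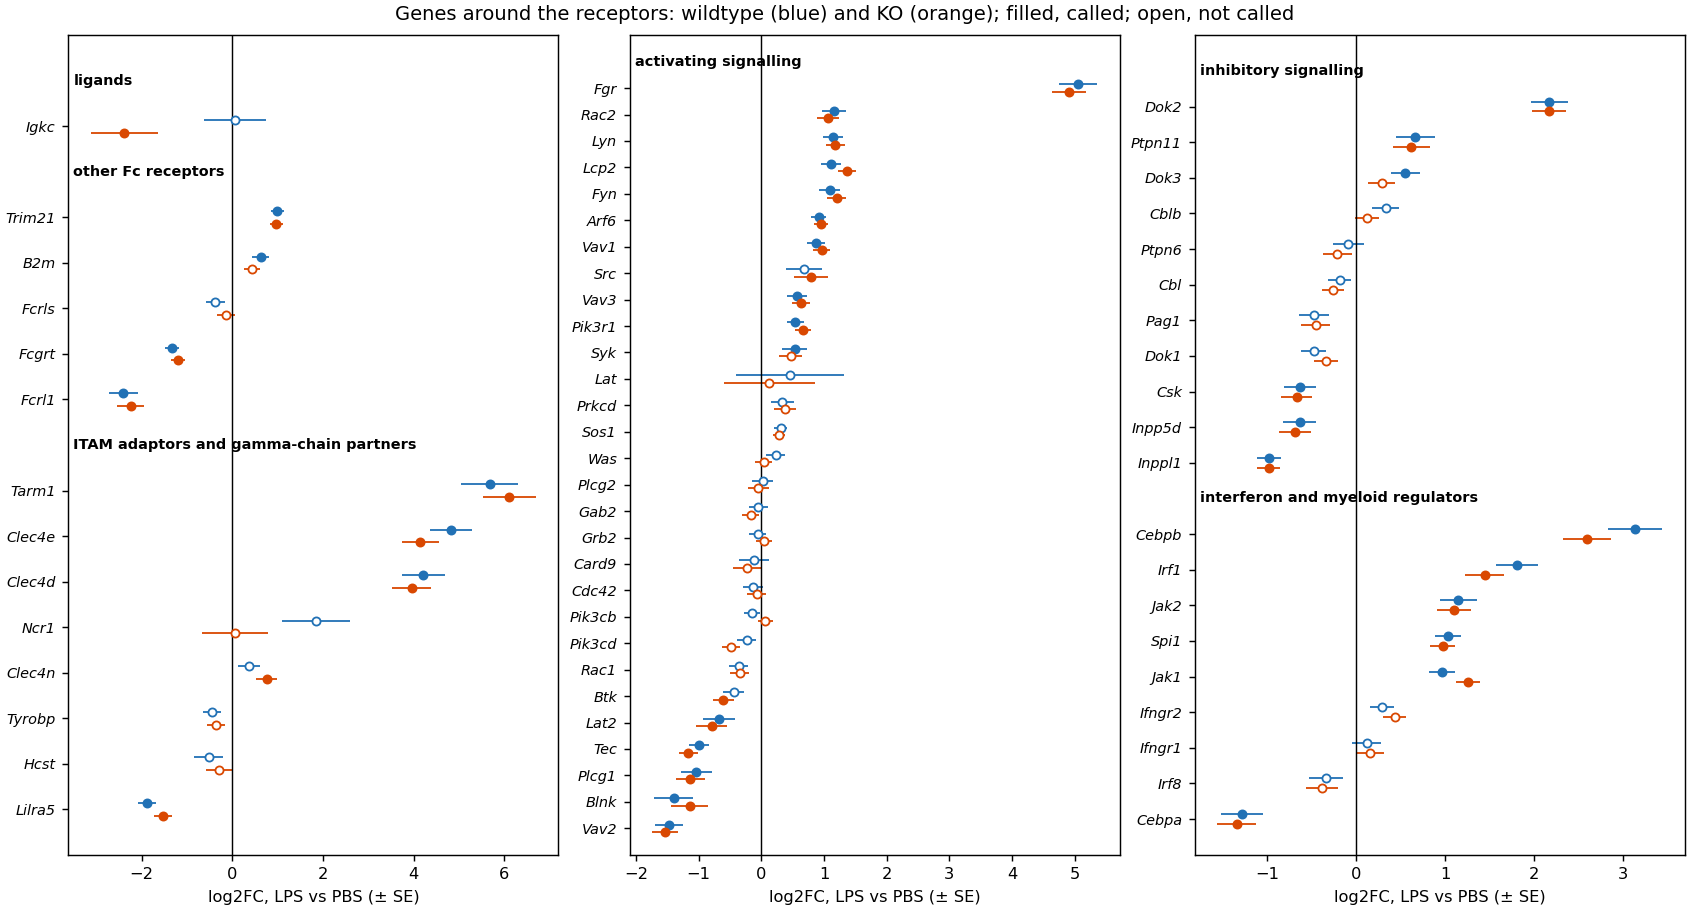
Log2 fold change ± SE after LPS of tested genes of each list in wildtype (blue) and KO mice (orange), with filled points for genes called and open points for the rest. *Fgr* (5.06 and 4.90) and *Clec4e* (4.83 and 4.14) lie far to the right, and *Ptx3* is not drawn because its PBS libraries held 0 to 2 counts.

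By their deviations from the group means over 19 libraries, among 9422 protein-coding genes with a mean of at least 10 CPM, *Fcgr3* was most like *Siglech* (Pearson's r = 0.94), *Creg1* and *Vdac2* (both 0.93). *Fcgr1* was most like *Med17* (0.94), *Exosc1* and *Fmnl3* (both 0.91), and *Alg11* and *Wdr75* (both 0.92) were among the genes most like *Fcgr2b*. *Fcer1g* was most like *Cd52* and *Pi4k2a* (both 0.95) and *B2m* (0.94). *Fcgr4* had the lowest likeness to any gene, with *Eif3e* at 0.89 and *Selenof* and *Ccnc* at 0.88. These are the highest of many values and describe these libraries.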

How the data were processed

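The authors isolated CD11b+ brain cells by MACS, prepared stranded total RNA libraries after ribosomal RNA depletion and sequenced pairs of 75 bases. Submitters' notes name cutadapt 0.17.4, STAR 2.7.9a and GRCm39. The strand setting of the counting is not given in the sources used here. The deposited values are raw counts per Ensembl gene, not normalized. Column names matched the labels of the mice.

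Counts of 19 libraries were fitted with edgeR 4.0.16 in R 4.3.3 (4 groups, TMM, quasi-likelihood test, filterByExpr with a minimum count of 10 and a minimum total of 15), which kept 18739 of 56980 genes. P-values were adjusted by Benjamini-Hochberg over all of them. SEs are the log2FC divided by the root of F. CPM use TMM-scaled totals and TPM the exonic length in GENCODE M39, which named 56236 genes. The scripts were tested on simulated data.

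The members and lists were chosen with earlier results of these data known. Named genes are the members, *Park7*, marker genes, up to 3 genes per list with the smallest p among those called after LPS in each genotype, and 3 most alike genes per member. Others are named as chosen after their values were seen, and some genes of this rule are not reported here. Alternatives were other filters, scalings (DESeq2 1.42.0 size factors, upper quartile), DESeq2 itself, fits of 2 groups, a replicate block, the library index, thresholds, transcript lengths and libraries left out. Leaving out libraries by marker level or principal component, and the canonical length for ratios and shares, were added after the data were seen.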

Additional observations from a re-analysis of the deposited data

Results flagged for a closer look

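The ratio of *Fcer1g* to the summed activating receptors (in TPM) was the only value with a library far from the others of its group. In the LPS-treated wildtype mice, library 5 had a ratio of 0.574, and the next highest library had 0.388. The other ratios, shares and levels did not stand apart in this way in any group of 4 or 5 mice, in 56 groups examined in all. Chance alone sets apart about 1 in 20 groups.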

How the results depend on the processing

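All 5 genes were called higher after LPS in both genotypes, and none was called between genotypes or for the interaction, under every alternative run. The LPS log2FC of *Fcgr4* ranged from 4.00 to 4.27 in wildtype and from 3.58 to 3.92 in KO mice, and that of *Fcer1g* from 0.81 to 1.02 and from 0.74 to 0.96. The largest adjusted p was 0.00923 in wildtype (20 alternatives) and 0.00197 in KO mice (22). Upper quartile scaling moved the median log2FC of all genes from -0.06 to -0.16 in wildtype and from -0.01 to -0.11 in KO mice. Of the smaller lists, inhibitory genes called lower after LPS in wildtype mice numbered 5 instead of 3 without the limit on the fold change, with either other filter, with DESeq2 or its size factors, with upper quartile scaling, without PBS-treated wildtype mouse 2 and without the libraries highest in oligodendrocyte markers, and 5 instead of 3 in KO mice without the fold limit. Inhibitory genes called higher in KO mice numbered 1 instead of 2 without LPS-treated KO mice 1 and 5. Other Fc receptors called higher in KO mice numbered 2 instead of 1 without the filter, and without either set of libraries left out together. In the list of gamma chain partners, requiring 10 counts in every library gave 1 instead of 3 called higher in wildtype and 2 instead of 4 in KO mice, and with upper quartile scaling or that filter 2 instead of 1 were called lower in wildtype mice. Without the filter 2 instead of 1 ligands were called higher in wildtype mice. The 2 ligands were not tested when 10 counts were required in every library, and the call of *Igkc* in KO mice was lost in a fit of the 2 groups alone.

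Same-numbered mice are different animals, and not every pair deviated together. For the LPS comparisons the mean correlation of their deviations was 0.33 in wildtype (pairs from -0.04 to 0.58) and 0.25 in KO mice (0.03 to 0.54). For the genotype comparisons it was -0.10 after LPS (-0.57 to 0.30) and -0.01 at baseline (-0.29 to 0.30). The numbers were not used as pairs in the main fit. In a fit with a replicate block, 5 of 5 genes were called after LPS in each genotype and 0 of 5 otherwise, and the baseline log2FC of *Fcgr3* between genotypes was 0.015.

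Ratios to *Fcgr2b* depended on gene length. In the order LPS-treated KO, PBS-treated KO, LPS-treated wildtype and PBS-treated wildtype, raw counts gave mean log2 ratios of -0.999, -0.20, -0.88 and -0.16 for *Fcgr1*, 1.11, 1.69, 0.96 and 1.67 for *Fcgr3*, and -2.68, -4.57, -2.27 and -4.75 for *Fcgr4*. Canonical transcript lengths gave -0.63, 0.17, -0.52 and 0.20 for *Fcgr1*, -1.26, -3.16, -0.86 and -3.34 for *Fcgr4*, and for *Fcgr3* 2.83 in PBS-treated KO, 2.10 in LPS-treated and 2.81 in PBS-treated wildtype mice. The changes of these ratios with LPS stayed the same, since a fixed length cancels between 2 genes.

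With 1 mouse left out at a time, KO against wildtype after LPS ranged from 0.20 to 0.45 for *Fcgr3*, from 0.074 to 0.28 for *Fcgr2b* and from -0.34 to -0.12 for *Fcgr4*, and the interaction ranged from -0.59 to -0.22 for *Fcgr4*, from 0.21 to 0.46 for *Fcgr3* and from 0.11 to 0.32 for *Fcgr2b*. Values near 0 changed sign: the interaction ranged from -0.19 to 0.048 for *Fcer1g* and from -0.019 to 0.24 for *Fcgr1*. Between the genotypes after LPS the values ranged from -0.13 to 0.047 for *Fcer1g* and from -0.050 to 0.13 for *Fcgr1*. At baseline they ranged from -0.089 to 0.15 for *Fcer1g*, from -0.19 to 0.062 for *Fcgr1*, from -0.13 to 0.055 for *Fcgr2b*, from -0.13 to 0.086 for *Fcgr3* and from -0.044 to 0.33 for *Fcgr4*. Other alternatives went further for some values. The interaction reached 0.38 for *Fcgr2b*, 0.48 for *Fcgr3* and 0.32 for *Fcgr1*, and the baseline value reached -0.25 for *Fcgr1* and -0.15 for *Fcgr2b*. Without the libraries highest in oligodendrocyte markers, *Fcer1g* was at 0.042 for the interaction and at -0.074 between genotypes at baseline, and *Igkc* at -0.029 after LPS in wildtype mice (0.062 as reported). Without libraries 1 and 5 of the LPS-treated KO mice *Fcer1g* was at 0.0047 between genotypes after LPS. With the library index as covariate the baseline values were 0.012 for *Fcgr1* and 0.092 for *Fcgr3*, and without mitochondrial and ribosomal RNA genes 0.00043 for *Fcgr3*. *Igkc* after LPS in wildtype mice was at -0.037 with upper quartile scaling and between -0.31 and 0.84 with 1 mouse left out. The cause of these shifts was not tested.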
